A study of Mus musculus with 23 samples.

Results

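Complement was described through 9 of the 54232 genes counted in these libraries, picked by symbol and found through their Ensembl identifiers. They were picked with earlier results of these data known. All 9 had reads in every library and passed the filter on low counts. They fall into 4 roles. The initiators are C1qa, C1qb and C1qc, which encode the chains of the recognition molecule C1q, and C1ra, which encodes a copy of the protease C1r. C3 and C4b encode the proteins whose fragments are deposited on a target. Serping1, the regulator of the set, encodes the C1 inhibitor. C3ar1 and C5ar1 encode the receptors for the released peptides of C3 and C5.

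Complement is a cascade of secreted proteins that tags surfaces for removal and calls in phagocytes. In its classical branch C1q binds the target, its attached proteases cleave C4 and C2, and the enzyme these form cleaves C3, while the C1 inhibitor blocks the proteases. In the brain C1q is known chiefly as a product of microglia, C3 and C4 are known as genes that reactive glia raise, and the pathway is known for tagging synapses that microglia then engulf.

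The RNA was poly(A)-selected from the hippocampus of C57BL/6 mice, and 23 libraries in 7 groups were sequenced. At 9 months there were 4 wild-type libraries (WT), 4 with the PS19 transgene and both copies of Lsd1 (PS19), 4 with PS19 and a heterozygous loss of Lsd1 (PS19;Lsd1Δ/+, written PS19_Lsd1het here) and 2 with the loss of Lsd1 alone (Lsd1Δ/+, written Lsd1het). PS19 is a transgene for human tau with the P301S mutation, placed under the Prnp promoter, so it adds tau from outside the mouse's own tau gene. Lsd1 is the gene listed as Kdm1a, which encodes a histone demethylase. At 11 months every mouse had received a neuron-specific adeno-associated virus (AAV) in the hippocampus: wild type with the control virus HA (WT_HA, 3 libraries), PS19 with HA (PS19_HA, 3) and PS19 with the virus that expresses LSD1 (PS19_rescue, 3), the PS19 mice of both groups with 2 normal copies of Lsd1. Age, injection and sex differ together between the cohorts and cannot be told apart. The labels do not say whether each library is a separate mouse, so p-values measure the spread between these libraries, which may be technical.

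Libraries held 15451494 to 24644977 counted reads. In 3 libraries an unusual share of reads came from mitochondrial genes: WT replicate 3 (33.9%), PS19 replicate 3 (16.1%) and WT_HA replicate 2 (16.2%). The other 20 had 2.86% to 6.04%, and results are given with and without the 3. At 9 months the first principal component (51.6% of the variance) set replicates 3 and 4 apart from replicates 1 and 2, so values within each set are given beside the pooled ones. Read from Xist and Y-linked genes, by the larger count, all 14 libraries at 9 months were male, and each group at 11 months had 2 female and 1 male. Some 11-month libraries were less clear. WT_HA replicate 2 and PS19_HA replicate 2, read as female, had 405 and 419 Y-linked reads, against 1 to 33 in the other females. WT_HA replicate 3 and PS19_rescue replicate 1, read as male, had 1044 and 1061 Xist reads. The 5 hippocampal neuron markers Prox1, Wfs1, Neurod6, Spink8 and Dsp had reads in every library. Kdm1a stood at 35.5, 35.2, 56.5 and 45 CPM (reads counted for a gene relative to the library's total, scaled by edgeR's TMM factors) in PS19_Lsd1het and at 35.4 and 36.4 in Lsd1het, against 51.4 to 61.3 in WT. The library labelled PS19_Lsd1het replicate 3 thus lay inside the WT range, and results are given without it too. In PS19_rescue, where the virus adds reads, Kdm1a stood at 10799, 2952 and 1725 CPM, against 60.5 to 63.1 in PS19_HA.

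On GRCm38 the C1q chains lie side by side on the minus strand of chromosome 4, in the order C1qb (chr4:136880129-136886187), C1qc (chr4:136889804-136893065) and C1qa (chr4:136895917-136898803). C3 (chr17:57203970-57228136) and C4b (chr17:34728380-34743882) share chromosome 17, and C3ar1 (chr6:122847138-122856161) and C1ra (chr6:124512405-124523443) share chromosome 6. C5ar1 lies at chr7:16246743-16259540 and Serping1 at chr2:84765387-84775444, and all 9 are annotated as protein-coding. Of the 50-base stretches in the C4b transcripts, 34.6% also occur in its neighbour C4a, and 50.8% of those of C1ra occur in other genes, 48.0% in C1rb. How reads that fit several places were counted is not given in the sources used here, so levels of C4b and C1ra are uncertain, while no such stretch was shared for the other 7 members.

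Per kilobase of exon, the C1q chains were the most abundant members in WT, at a mean of 28.2 CPM per kb for C1qa, 22.8 for C1qb and 12.6 for C1qc. C4b followed at 6.94 and Serping1 at 1.77. C3 (0.399), C1ra (0.368), C3ar1 (0.347) and C5ar1 (0.152) were scarce. In PS19 the mean of C4b, 54.1 CPM per kb, lay above that of C1qc, 50.9, and that of C3 reached 5.49, next to Serping1 at 4.97.

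Promoters were looked up because 6 members moved together with tau. RefSeq's table for GRCm38.p6 matched 6 of the 9 members, all but C1qa, C4b and Serping1, and 4 of those that moved are shown as the 250 bases before the RefSeq start, read along the gene's minus strand. They lie at chr4:136886201-136886450 for C1qb, chr4:136892915-136893164 for C1qc, chr17:57228137-57228386 for C3 and chr6:122856158-122856407 for C3ar1. Capitals mark matches to the 4 motifs searched on both strands: GAGGAA (the core bound by PU.1, a factor of myeloid cells), TTCNNNGAA (the site of STAT factors), the interferon-stimulated response element and TTGCNNAA (a site of C/EBP factors).
C1qb: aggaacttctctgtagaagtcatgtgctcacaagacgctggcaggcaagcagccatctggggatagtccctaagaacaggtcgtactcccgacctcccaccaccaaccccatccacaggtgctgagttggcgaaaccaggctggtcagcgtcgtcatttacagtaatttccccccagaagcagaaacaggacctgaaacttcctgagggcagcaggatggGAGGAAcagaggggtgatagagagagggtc
C1qc: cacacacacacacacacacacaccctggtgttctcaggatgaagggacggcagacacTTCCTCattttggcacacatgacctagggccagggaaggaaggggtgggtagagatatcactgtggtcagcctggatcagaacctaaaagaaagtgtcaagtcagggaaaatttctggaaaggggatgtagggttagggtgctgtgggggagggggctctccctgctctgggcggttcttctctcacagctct
C3: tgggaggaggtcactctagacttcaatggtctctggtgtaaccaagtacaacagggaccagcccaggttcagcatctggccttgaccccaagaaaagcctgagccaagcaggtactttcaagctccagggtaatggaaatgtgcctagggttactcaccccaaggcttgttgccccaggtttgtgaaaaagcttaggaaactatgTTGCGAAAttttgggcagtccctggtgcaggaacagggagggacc
C3ar1: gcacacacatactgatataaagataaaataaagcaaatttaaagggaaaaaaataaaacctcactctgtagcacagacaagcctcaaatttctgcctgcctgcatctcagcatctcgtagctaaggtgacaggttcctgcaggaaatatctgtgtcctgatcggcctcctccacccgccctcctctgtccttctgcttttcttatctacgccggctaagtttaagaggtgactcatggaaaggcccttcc

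GAGGAA occurred in the C1qb window, at bases -30 to -25 from the start, and in the C1qc window as its reverse complement, TTCCTC, at -193 to -188. It occurs in 23.3% of the 32851 RefSeq windows of that length. The C3 window held TTGCGAAA at -45 to -38, a motif that 9.56% of windows hold. TTCNNNGAA (7.02% of windows) and the interferon-stimulated response element (2.98%) matched in none of the 6 windows, and those of C1ra, C3ar1 and C5ar1 held no match at all. The RefSeq starts differ from those of the gene annotation. By the gene positions given above, the windows of C1qc, C1ra and C5ar1 lie mostly inside the genes, and that of C3ar1 overlaps its gene by a few bases. For these 3 genes a match or its absence says little about sequence upstream of the annotated gene. A match describes letters only, and factor binding was not measured.

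Averaged over the 2 cohorts, RNA of 6 of the 9 members was higher with tau by edgeR's test. The C1q chains, C3, C4b and C3ar1 rose, from 3.35-fold for C1qb to 15.4-fold for C3, while C1ra, Serping1 and C5ar1 did not pass the test. That is 6 of 9 members called by edgeR's quasi-likelihood test (adjusted p under 0.05 over all 20931 genes tested), against 0.994% of all genes tested, and DESeq2 called 6 members too, against 2.01%. The members' median difference was 1.86 on the log2 scale, and all 9 were positive. Because the members were chosen with earlier results of these data known, their excess over all genes may partly reflect that choice. In bulk tissue, more cells of a type and more RNA per cell cannot be told apart. The 6 calls came from a fit over all 23 libraries. With the WT, PS19, WT_HA and PS19_HA libraries alone edgeR called none of the 9, at a smallest adjusted p of 0.137 and a median log2 difference of 1.85. The calls also fell without WT_HA replicate 1 (to 3, C3, C4b and C3ar1), without WT_HA replicate 2 or 3 (to 1, C3) and without PS19_HA replicate 3 (to 2, C3 and C4b). C1qa and C1qc lost their calls, leaving 4, with no filter on low counts and without PS19 replicate 1, PS19 replicate 4, PS19_HA replicate 2 or WT replicate 4, and C1qc alone did without WT replicate 3. Without the 3 libraries of high mitochondrial share all 6 were called. How calls over all genes changed in these fits is not given here.

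**Figure D1:**
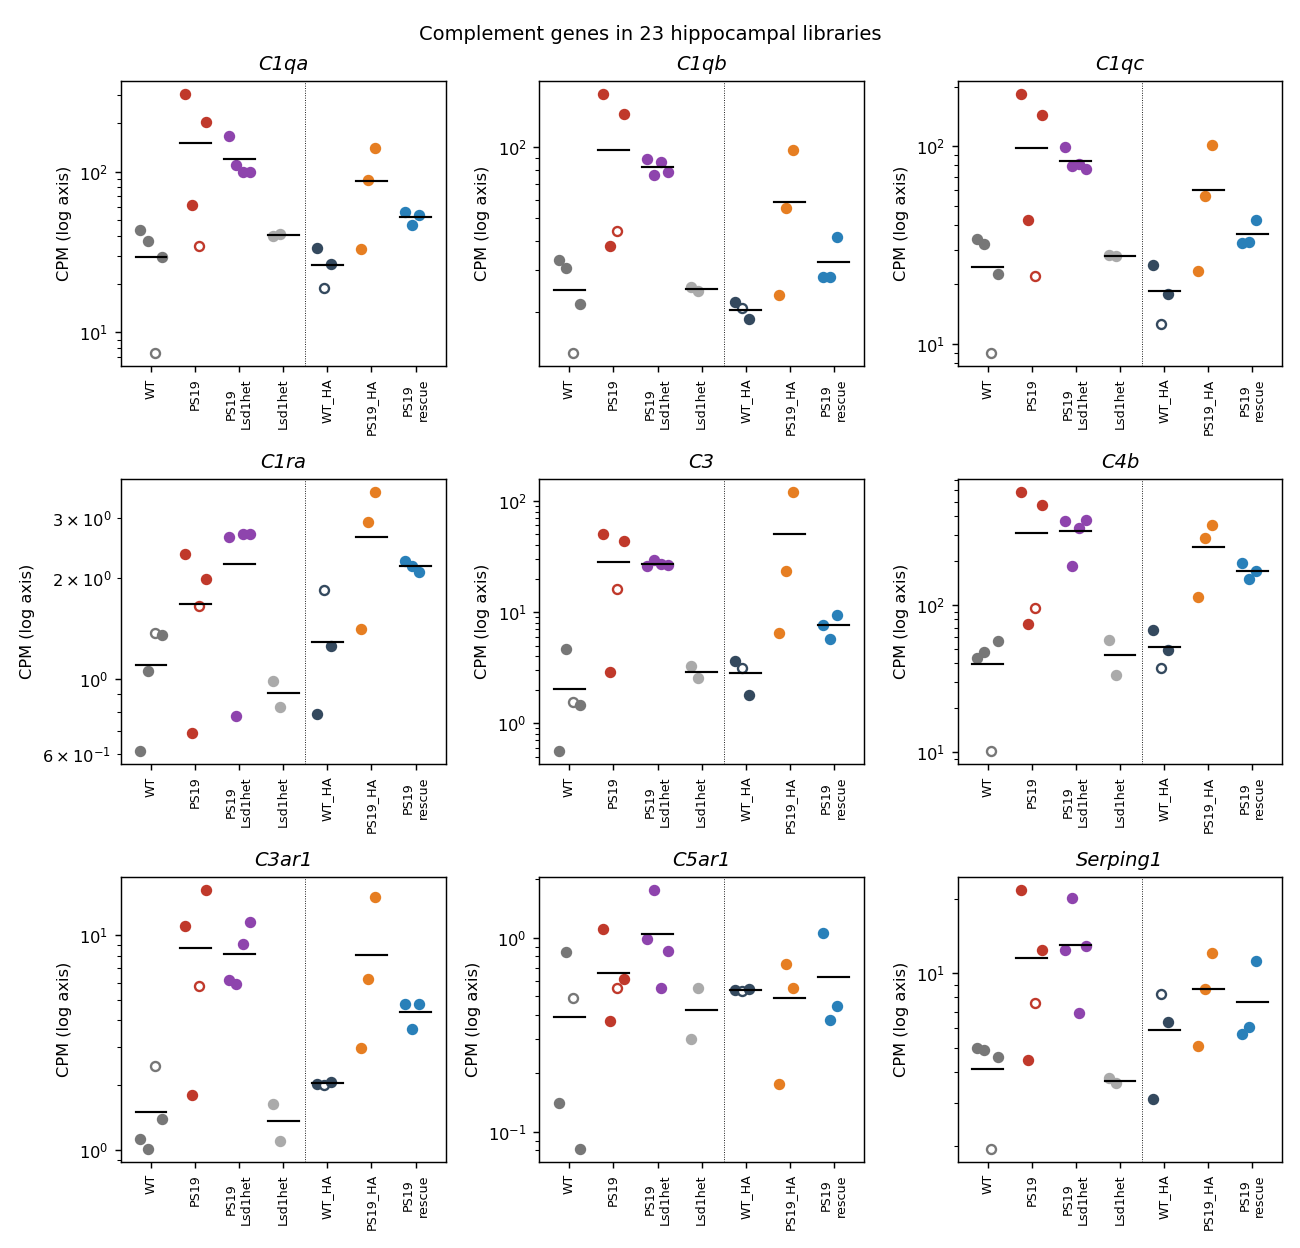
CPM of each of the 9 complement genes in the 23 libraries, on a log axis, by group. Points are libraries, open circles are the 3 with a high mitochondrial share, bars are group means, and the dotted line parts the 9-month from the 11-month groups; the C1q chains, C3, C4b and C3ar1 stand higher in most tau libraries, and PS19 and PS19_HA each hold a library close to the wild-type points.

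The C1q chains rose over both cohorts, with a wide spread among tau libraries. C1qa stood at 43.3, 37.2, 7.43 and 29.5 CPM in WT replicates 1 to 4 and at 304, 61.9, 34.6 and 204 in PS19. PS19 replicates 1 and 4 were far above every WT library, replicate 2 was slightly above, and replicate 3, a library of high mitochondrial share, lay inside the WT range but above WT replicate 3, its like-numbered library. At 11 months C1qa stood at 33.6, 18.9 and 26.7 CPM in WT_HA and at 33, 89.1 and 139.9 in PS19_HA, where replicate 1 fell among the controls. The log2 difference was 2.36 ± 0.63 (SE) at 9 months (edgeR, adjusted p = 0.299) and 1.72 ± 0.43 at 11 months (0.454), and 2.04 ± 0.44 over both (0.0285).

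C1qb, the chain with the smallest mean change of the 3, stood at 33.1, 30.8, 13.4 and 21.7 CPM in WT and at 168, 38.2, 44 and 139 in PS19. Every PS19 library was above every WT library, replicate 2 by the least. At 11 months it stood at 22, 20.7 and 18.6 CPM in WT_HA and at 23.6, 55.4 and 96.9 in PS19_HA, again without overlap. The C1qb log2 difference was 1.97 ± 0.44 at 9 months (edgeR, adjusted p = 0.175), 1.52 ± 0.42 at 11 months (0.454) and 1.75 ± 0.33 over both (0.0158). C1qc stood at 34, 31.9, 9 and 22.6 CPM in WT against 184, 42.6, 22 and 145 in PS19, and at 25.1, 12.7 and 17.8 in WT_HA against 23.4, 56.3 and 102 in PS19_HA. Its groups overlapped in both cohorts through PS19 replicate 3 and PS19_HA replicate 1. The C1qc log2 difference was 2.01 ± 0.56 at 9 months, 1.70 ± 0.46 at 11 months and 1.86 ± 0.41 over both (edgeR, adjusted p = 0.37, 0.454 and 0.033).

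C1ra, the protease that C1q activates, was scarce, at 13 to 91 reads a library. It stood at 0.612, 1.06, 1.37 and 1.35 CPM in WT and 2.35, 0.69, 1.65 and 1.98 in PS19, and at 0.789, 1.83 and 1.25 in WT_HA and 1.41, 2.92 and 3.6 in PS19_HA. Groups overlapped in both cohorts. The log2 difference over both cohorts was 0.83 (95% interval 0.15 to 1.51; edgeR, adjusted p = 0.399).

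C3, the central protein of the cascade, was scarce in wild-type hippocampus and had the largest mean tau difference of the 9. It stood at 0.565, 4.61, 1.56 and 1.47 CPM in WT (12 to 109 reads) and at 50.2, 2.87, 16.1 and 43.6 in PS19. PS19 replicate 2 lay inside the WT range, and the other 3 PS19 libraries were above every WT library. At 11 months C3 stood at 3.61, 3.14 and 1.8 CPM in WT_HA and at 6.42, 23.3 and 121 in PS19_HA. The groups did not overlap there, but the PS19_HA libraries ran over a wide range, led by replicate 3, the male of that group. That library also had the lowest summed hippocampal neuron markers of its group, 170 CPM against 527 and 539 in replicates 1 and 2. Whether sex or tissue content bears on its C3 was not tested. The log2 difference was 3.76 ± 0.76 at 9 months (edgeR, adjusted p = 0.126; DESeq2, 3.34e-05) and 4.14 ± 0.94 at 11 months (edgeR, 0.454; DESeq2, 0.00679). Over both it was 3.95 ± 0.64, or 15.4-fold (edgeR, adjusted p = 0.00709). With sex type as a covariate the 11-month difference was 3.58, and without PS19_HA replicate 3 it was 2.38.

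C4b, whose product is deposited after C1 acts, was abundant and separated the groups in both cohorts. It stood at 43.8, 47.6, 10.2 and 56.5 CPM in WT and at 586, 74.1, 94.5 and 478 in PS19. The lowest PS19 library, replicate 2, was above the highest WT library, and replicates 1 and 4 were several times higher still. At 11 months C4b stood at 67.8, 37.2 and 49.1 CPM in WT_HA and at 114, 284 and 348 in PS19_HA, without overlap. The log2 difference was 2.96 ± 0.68 at 9 months (edgeR, adjusted p = 0.19; DESeq2, 0.000751), 2.27 ± 0.38 at 11 months (edgeR, 0.395; DESeq2, 2.09e-06) and 2.62 ± 0.46, or 6.13-fold, over both (edgeR, 0.00967). Its near copy C4a stood at a mean of 2.9 CPM in WT and 2.47 in PS19.

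Serping1, the brake on C1r and C1s, stood at 4.99, 4.91, 1.96 and 4.58 CPM in WT and at 21.8, 4.46, 7.55 and 12.4 in PS19, where replicate 2 lay inside the WT range. At 11 months it stood at 3.11, 8.22 and 6.37 CPM in WT_HA and 5.1, 8.63 and 12.1 in PS19_HA, and the groups overlapped. The log2 difference was 1.48 (95% interval 0.48 to 2.49) at 9 months and 0.55 (-0.43 to 1.53) at 11 months, and 1.01 over both (edgeR, adjusted p = 0.255).

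Of the 2 receptors, C3ar1 rose over both cohorts and C5ar1 did not pass the test. C3ar1, the C3a receptor of microglia and other myeloid cells, stood at 1.13, 1.01, 2.44 and 1.39 CPM in WT and at 11, 1.8, 5.77 and 16.2 in PS19. Replicate 2 of PS19 lay below WT replicate 3, the WT library of high mitochondrial share, and above the other WT libraries. At 11 months it stood at 2.03, 2.01 and 2.07 CPM in WT_HA and 2.99, 6.22 and 14.9 in PS19_HA, without overlap. The C3ar1 log2 difference was 2.57 ± 0.56 at 9 months, 1.98 ± 0.49 at 11 months and 2.28 ± 0.41 over both (edgeR, adjusted p = 0.161, 0.454 and 0.0109). C5ar1, the C5a receptor, was the scarcest member, at 2 to 48 reads a library. It stood at 0.141, 0.846, 0.489 and 0.0818 CPM in WT, 1.11, 0.372, 0.549 and 0.616 in PS19, 0.54, 0.533 and 0.547 in WT_HA and 0.176, 0.73 and 0.553 in PS19_HA, and groups overlapped in both cohorts. Its log2 difference over both was 0.32 (95% interval -0.63 to 1.27; edgeR, adjusted p = 1).

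Within a single cohort, with all libraries in the fit, no member passed edgeR's threshold. At 9 months PS19 against WT gave 0 of 9 members called by edgeR, against 0.00497% of all genes tested. At an unadjusted p under 0.05 edgeR had 7 members, beside 787 of 20122 genes. DESeq2 called the 3 C1q chains, C3, C4b and C3ar1, against 0.949%. With the replicate number as a block DESeq2 called 7, adding Serping1, among 365 of 20122 genes, and edgeR 0. Each PS19 library was above the WT library of its own number for 5 members, C1qa, C1qb, C1qc, C4b and C3ar1. The share of all genes for which this holds was not computed, and the labels do not say that the numbers pair libraries. Groups did not overlap, with PS19 higher, for 2 members, C1qb and C4b, against 1% of genes. Without PS19 replicate 2 edgeR called 4 members: C1qb (adjusted p = 0.0219), C3 (0.00662), C4b (0.03) and C3ar1 (0.00933). Calls over all genes rose too, from 1 of 20122 to 146 of 20144. All 9 differences were positive within replicates 1 and 2 and within replicates 3 and 4, for example 2.91 and 3.09 for C4b and 3.40 and 4.29 for C3. Without the 2 libraries of high mitochondrial share the members' median was 2.05, against 2.01 with them, and edgeR again called none.

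At 11 months PS19_HA against WT_HA likewise gave 0 of 9 by edgeR, against 0.0156% of genes tested, with 7 at an unadjusted p under 0.05. The count of all genes at that unadjusted level is given with the wider list below. DESeq2 called 6, again the C1q chains, C3, C4b and C3ar1, against 0.627%. With the replicate number as a block DESeq2 called 4, among 266 of 19290 genes, and edgeR 0. Groups did not overlap, with PS19_HA higher, for C1qb, C3, C4b and C3ar1, against 7.78% of genes. Without PS19_HA replicate 1, the library of its group with the least C4b, edgeR called C4b (adjusted p = 0.0251). How many of all genes that fit called is not given here, so the call is not set against a share. The members' median was 1.70, 1.53 without WT_HA replicate 2, of high mitochondrial share, and 1.10 without PS19_HA replicate 3. For the difference between the 2 cohorts' tau effects edgeR called 0 members, against 0% of genes, with 0 at an unadjusted p under 0.05, and DESeq2 called 0 as well. The 95% intervals of that difference were wide, -2.03 to 2.78 for C3 and -1.80 to 0.90 for C1qb.

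**Figure D2:**
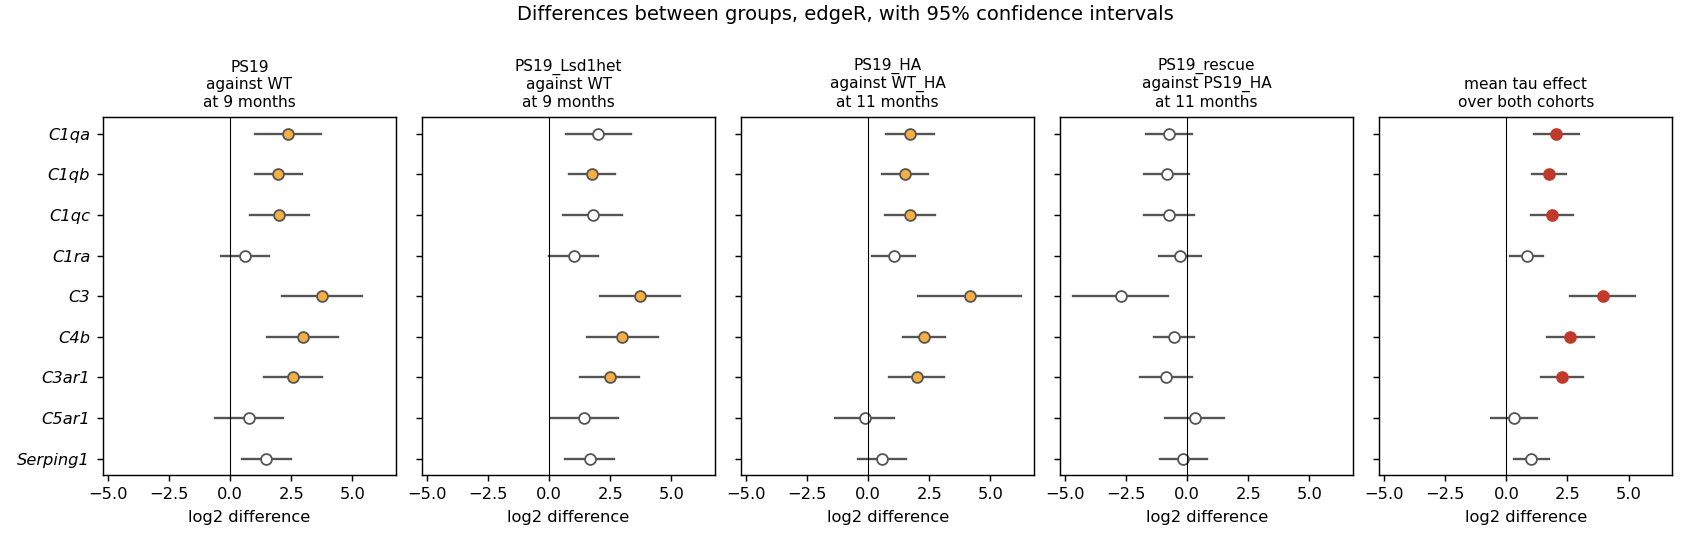
Log2 differences of the 9 members from edgeR, with 95% intervals, in 5 comparisons. Red points passed edgeR's adjusted p of 0.05, orange points passed DESeq2's alone and white points neither; the differences from wild type lie mostly to the right of 0, and the 6 red points are all in the mean tau effect.

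Loss of 1 Lsd1 copy left no complement difference that passed a test. In PS19_Lsd1het, C1qa stood at 167, 110.2, 99.3 and 99 CPM in replicates 1 to 4, C1qb at 89.5, 76.6, 86.6 and 78.3 and C1qc at 99.4, 79.7, 81.2 and 76.7. All were above every WT library and inside the range of PS19. C3 stood at 25.7, 29.2, 27.2 and 26.7 CPM and C4b at 370.5, 185, 330.5 and 379. C3 was nearly level across these 4 libraries, a coefficient of variation of 5.39%, against 79.5% in PS19, a difference in spread that was not tested. Serping1 stood at 12.4, 20.1, 6.92 and 12.9 CPM, C3ar1 at 6.16, 5.9, 9.06 and 11.5, C1ra at 2.63, 0.775, 2.69 and 2.7 and C5ar1 at 0.988, 1.77, 0.551 and 0.858. C1ra and C5ar1 alone of the 9 overlapped WT.

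Against WT, PS19_Lsd1het thus gave 7 members whose groups did not overlap, against 3.46% of genes tested. EdgeR called 0 of 9, against 0.00497%. At an unadjusted p under 0.05 it had all 9, beside 1270 of 20122 genes. DESeq2 called 4, C1qb, C3, C4b and C3ar1, against 0.547%. With the replicate number as a block DESeq2 called 7, adding C1qa, C1qc and Serping1, among 872 of 20122 genes, and edgeR 0. Without the library labelled PS19_Lsd1het replicate 3 the members' median was 1.87, against 1.79 with it, and without WT replicate 3 it was 1.54. PS19 and PS19_Lsd1het share their WT libraries, so their differences from WT are not independent. Within replicates 1 and 2 the difference was 2.63 for C4b and 3.41 for C3, and within replicates 3 and 4 it was 3.40 and 4.14.

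Set directly against PS19, the PS19_Lsd1het libraries overlapped them for all 9 members, while 0.631% of genes tested did not overlap. EdgeR called 0, against 0% of genes, with 0 at an unadjusted p under 0.05, and DESeq2 called 0, against 0.00497%. The log2 differences ran from -0.35 for C1qa to 0.66 for C5ar1, at a median of -0.05. For C4b the difference was 0.04 with a 95% interval of -1.32 to 1.40, and for C3 -0.05 (-1.49 to 1.39), so a change of 2-fold in either direction lies inside both. Without the library labelled PS19_Lsd1het replicate 3 the median was -0.06, and without the libraries of high mitochondrial share it was -0.24. The sign of the median rested on single PS19 libraries: the median was 0.42 without PS19 replicate 1, with all 9 members positive, and -0.43 without PS19 replicate 2.

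Lsd1het libraries, without tau, had ranges that overlapped WT throughout. C1qa was at 40 and 40.6 CPM, C1qb at 25.6 and 24.7, C3 at 3.27 and 2.54 and C4b at 57.6 and 33.5 in replicates 1 and 2. All 9 members did, while 10.7% of genes tested did not. C1qc was at 28.1 and 27.9, C1ra at 0.988 and 0.828, C3ar1 at 1.63 and 1.1, C5ar1 at 0.301 and 0.552 and Serping1 at 3.78 and 3.59. EdgeR called 0 members, against 0% of genes, with 0 at an unadjusted p under 0.05, and DESeq2 called 0, against 0.00497%. Differences ran from -0.26 for C1ra to 0.48 for C3. The interaction of tau with Lsd1 dose also gave 0 members by edgeR, against 0%, with 0 at an unadjusted p under 0.05, and 0 by DESeq2, against 0.00994%. With 2 Lsd1het libraries its intervals were wide, -2.88 to 1.81 for C3 and -2.31 to 1.99 for C4b.

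PS19_rescue libraries, with LSD1 virus, lay between WT_HA and the higher PS19_HA libraries for most members. C1qa stood at 55.7, 46.3 and 53.7 CPM in replicates 1 to 3, C1qb at 28, 28.1 and 41.5 and C1qc at 32.4, 32.7 and 42.6. All 3 chains were above every WT_HA library and above PS19_HA replicate 1, and below PS19_HA replicates 2 and 3. C3 stood at 7.64, 5.74 and 9.37 CPM, C4b at 192, 149.9 and 170.1 and C3ar1 at 4.76, 3.66 and 4.76. These too were above every WT_HA library and overlapped PS19_HA. C1ra stood at 2.23, 2.16 and 2.08 CPM, Serping1 at 5.7, 6.08 and 11.2 and C5ar1 at 1.06, 0.375 and 0.446. Of these 3, C1ra alone was above every WT_HA library.

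Against PS19_HA, edgeR called 0 members, against 0% of genes tested, with 1 (C3) at an unadjusted p under 0.05, and DESeq2 called 0, against 0.0156%. The count of all genes at that unadjusted level is not given here. All 9 members overlapped between the groups, while 7.15% of genes did not. The log2 difference was negative for 8 of 9, at a median of -0.75, with C5ar1 at 0.31. That of C3 was -2.73 (95% interval -4.67 to -0.78; edgeR, unadjusted p = 0.0111, adjusted p = 1). It rested on PS19_HA replicate 3, at 121 CPM: without that library it was -0.96, and the members' median was -0.14. C4b differed by -0.54 (-1.36 to 0.27).

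Against WT_HA, 7 members of PS19_rescue stood higher without overlap, all but C5ar1 and Serping1, against 5.78% of genes tested. EdgeR called 0, against 0.0207%, with 2 (C1qa and C4b) at an unadjusted p under 0.05, and DESeq2 called C4b (adjusted p = 0.00482), against 0.0933%. The count of all genes at that unadjusted level is again not given. With the replicate number as a block DESeq2 called 0. The C4b difference was 1.73 ± 0.37, or 3.32-fold, and that of C1qa 0.97 ± 0.43. Without WT_HA replicate 2 the members' median was 0.78, against 0.95 with it. PS19_HA and PS19_rescue share the WT_HA libraries here.

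Ranked by group mean, the 4 tau groups stood above the 3 groups without tau for 8 of the 9 members, C5ar1 being the exception. The share of all genes ranked this way was not computed, so the count only describes the members. Means of groups with a wide spread lean on their highest libraries, as for C3 in PS19_HA at 6.42, 23.3 and 121 CPM. For each C1q chain the order was PS19, PS19_Lsd1het, PS19_HA, PS19_rescue, Lsd1het, WT and WT_HA. For the chains, C4b and C3ar1 the only neighbours in the order whose ranges did not overlap were PS19_rescue and the group just below it. For C3, led by PS19_HA, PS19_rescue was apart from both neighbours, above Lsd1het at 2.54 to 3.27 CPM and below PS19_Lsd1het at 25.7 to 29.2. For C1ra, C5ar1 and Serping1 every pair of neighbours overlapped. Groups of different cohorts differ in age, virus and sex as well.

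Markers of microglia were higher in most of the libraries with high complement levels. The summed level of 9 microglial markers (among them Csf1r, Cx3cr1, P2ry12 and Tmem119, each of the 9 with reads in every library) was 282 to 316 CPM for WT and 332 to 744 for PS19. PS19_Lsd1het ran over 322 to 598 CPM and Lsd1het over 272 to 278. At 11 months WT_HA ran over 274 to 319 CPM, PS19_HA over 307 to 532 and PS19_rescue over 339 to 349. It was highest in PS19 replicates 1 and 4, the libraries with the most C1qa and C4b. PS19_Lsd1het replicate 2, at 322 CPM of markers, near the WT range, was mixed. It had the highest C3 (29.2 CPM against 25.7 to 27.2), Serping1 and C5ar1 of its group. It also had the lowest C4b (185 CPM), C1qb (76.6), C3ar1 (5.9) and C1ra (0.775). That library also had the lowest summed markers of neurons, 4276 CPM against 7178 to 8859 in the other 3, and of hippocampal neurons, 132 against 330.3 to 463. Measured against the mean log2 CPM of those markers in the same library, C1qb was still 1.13 higher in PS19 than in WT (1.18 ± 0.55 against 0.05 ± 0.53, SD, n = 4 and 4). C4b was 2.04 higher (2.59 ± 0.99 against 0.55 ± 1.05), and neither overlapped. C3 was 2.79 higher, C3ar1 1.53 and C1qc 1.07, with overlap. These are differences of log2 values and carry no test. How many of all genes separate on this measure was not computed, here or for the groups that follow. Lack of overlap therefore only describes the members named.

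In PS19_Lsd1het against WT the same measure was higher by 2.57 for C4b, 3.39 for C3, 1.77 for C3ar1 and 1.62 for C1qa, without overlap. In PS19_HA against WT_HA it was higher by 1.68 for C4b, 2.73 for C3, 1.15 for C3ar1, 1.04 for C1qa and 0.81 for C1qb, without overlap. For C5ar1 the same difference was -0.76, lower without overlap, but on 4 to 17 reads in PS19_HA and 9 to 14 in WT_HA. In PS19_rescue against PS19_HA it was -0.15 for C4b, -0.40 for C1qb and -1.56 for C3, all with overlap. Oligodendrocyte markers (4 genes) also stood apart, at 3104 to 3492 CPM in WT, 3558 to 5430 in PS19 and 3913 to 4924 in PS19_Lsd1het, but overlapped at 11 months, at 1799 to 3575 in WT_HA and 3419 to 4840 in PS19_HA. Summed markers of perivascular and border macrophages (6 genes, Pf4 at 0 in some PS19 libraries) ran over 5.84 to 9.78 CPM in WT and 4.83 to 22.7 in PS19, and those of monocytes and neutrophils (6 genes) over 0.677 to 1.79 and 0.849 to 1.65, with S100a8, Camp and Ngp at 0 in some libraries of both. The 7 astrocyte markers ran over 3579 to 5749 CPM in WT and 3582 to 7449 in PS19, and the 5 choroid plexus markers over 67.2 to 2087 and 284 to 2268. The part of any of these cells in the complement differences was not tested.

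**Figure D3:**
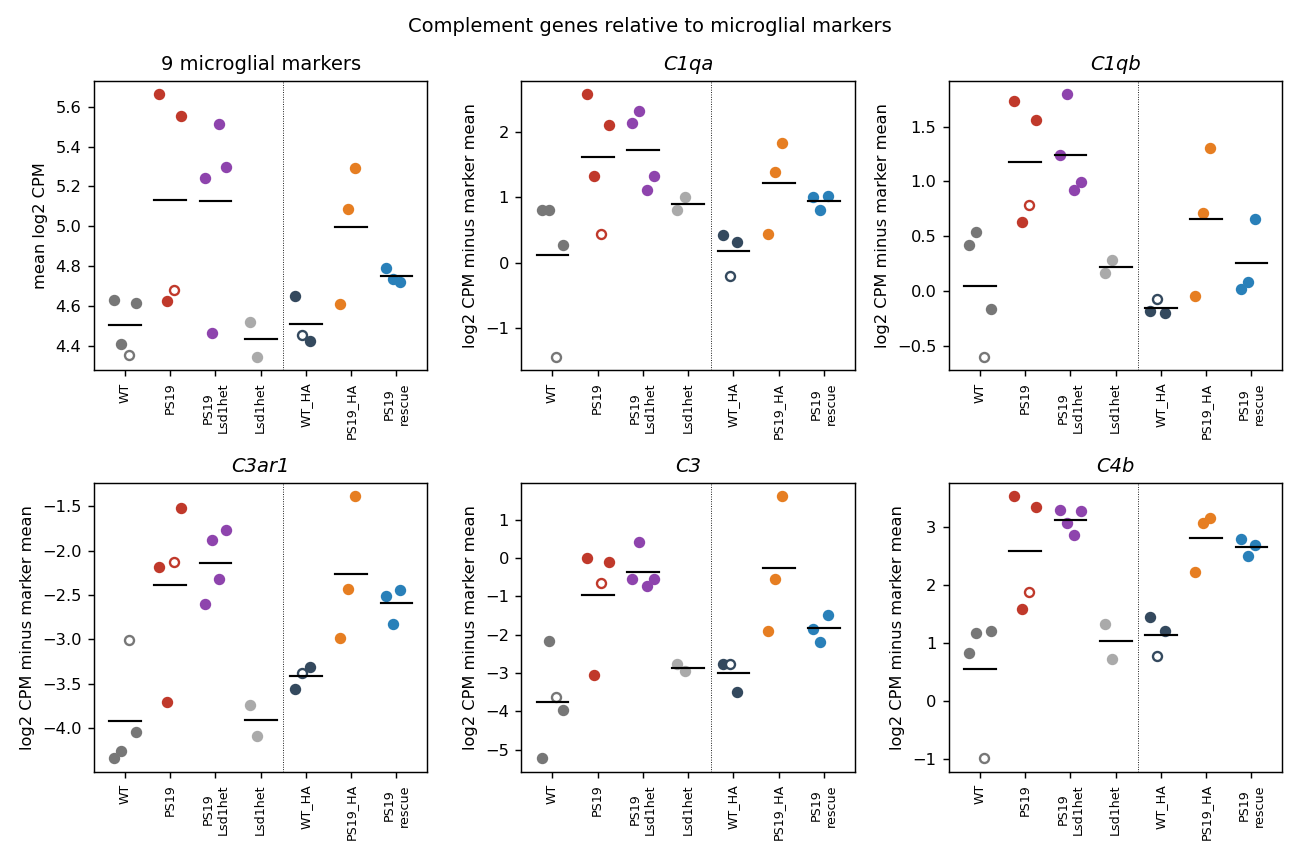
Mean log2 CPM of the 9 microglial markers (first panel) and the log2 difference of C1qa, C1qb, C3ar1, C3 and C4b from that mean (other panels), by group. Points are libraries, open circles are those with a high mitochondrial share and bars are group means; the C4b points of PS19 and PS19_HA stand above those of WT and WT_HA.

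The 3 chains of C1q did not keep the same proportions in every library. In the 20 libraries with a low mitochondrial share, C1qa CPM over C1qb CPM ran from 1.15 to 1.99, at a median of 1.46, and C1qc over C1qb from 0.937 to 1.16. In WT replicate 3, PS19 replicate 3 and WT_HA replicate 2 the C1qa ratio was 0.555, 0.786 and 0.914, and the C1qc ratio 0.499 to 0.672. Both ratios were below every one of the other 20 libraries. Levels of C1qa and C1qc in these 3 libraries therefore read low against C1qb, and whether that follows the mitochondrial share was not tested.

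C4b and C3 did not keep a fixed ratio. C4b CPM over C3 CPM was 77.5, 10.3, 6.5 and 38.4 in WT and 11.7, 25.8, 5.86 and 10.9 in PS19. The WT ratios rest on 12 to 109 C3 reads. It was 17.7, 12.2 and 2.88 in PS19_HA, lowest in replicate 3, and 25.1, 26.1 and 18.2 in PS19_rescue.

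Of 55 other genes of the pathway, 3 passed a test in any comparison. The filter left 40 of them at 9 months and 38 at 11 months, and Mbl1 was among those without a read in any library. Their median log2 difference was 0.08 in PS19 against WT and 0.05 in PS19_HA against WT_HA. For the 9 members it was 2.01 and 1.70, and for all genes tested -0.02 and 0.00. In the mean tau effect the median of these other genes was 0.04, with 22 positive and 18 negative. Both lists were chosen with earlier results of these data known, so the contrast between them may partly reflect that choice. In the mean tau effect edgeR called 2 of the 40 tested, Itgax and Itgb2, both higher, and DESeq2 called these and Clu, against the 0.994% and 2.01% of all genes given above. In each other comparison edgeR called 0 of them, and DESeq2 called Itgax and Itgb2 in PS19 and in PS19_Lsd1het against WT, Itgax and Clu in PS19_HA against WT_HA, and 0 in the other 6. At an unadjusted p under 0.05 edgeR had 7 of them in the mean tau effect (all genes, 1652 of 20931), 4 and 4 in those 9-month comparisons (all genes, 787 of 20122 and 1270 of 20122), 6 in PS19_HA against WT_HA (all genes, 1665 of 19290), 2 in PS19_rescue against PS19_HA, 3 in PS19_rescue against WT_HA and 0 in the other 4.

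The 3 were 2 receptor subunits and a soluble regulator. Itgax, the alpha chain of complement receptor 4, stood at 0.0942, 0.254, 0.0978 and 0.123 CPM in WT and at 16.1, 2.87, 3.36 and 56.8 in PS19. It also stood at 1.04, 0.651 and 0.312 in WT_HA and 1.45, 7.64 and 26.7 in PS19_HA, without overlap in either cohort. Its mean tau difference was 5.58 ± 0.79 (edgeR, adjusted p = 0.00281), from a WT level near 0. Itgb2, the beta chain shared by complement receptors 3 and 4, stood at 5.93, 5.62, 3.23 and 4.54 CPM in WT against 29.4, 7.11, 8.1 and 25.5 in PS19, and 5.31, 4.32 and 5.04 in WT_HA against 4.93, 10.7 and 18.8 in PS19_HA. PS19 was above every WT library, while PS19_HA replicate 1 lay among the controls. Its mean tau difference was 1.54 ± 0.31 (0.0195). Clu, which encodes clusterin, a secreted inhibitor of the terminal complex, stood at 859, 789, 463 and 591 CPM in WT and 1580, 877, 718 and 1205 in PS19, with overlap. At 11 months it stood at 539, 578 and 506 CPM in WT_HA and 675, 865 and 779.5 in PS19_HA, and at 652, 556 and 647 in PS19_rescue. PS19_HA was above both other groups in every library. Its difference from WT_HA was 0.51 ± 0.13 (edgeR, adjusted p = 0.454; DESeq2, 0.0411), and its mean tau difference 0.61 ± 0.18 (edgeR, 0.144; DESeq2, 0.0444).

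Other wider genes did not pass. Of the recognition molecules and proteases, Masp1, a protease of the lectin branch, was higher without overlap in PS19 than in WT (0.39 ± 0.18; edgeR, adjusted p = 1). C1s1, a copy of the protease C1s that shares sequence with C1s2, differed by 0.61 over both cohorts (0.599). Terminal components were scarce: C6, C8a, C8b and C9 did not pass the filter, while C7 and C8g did, with mean tau differences of -0.08 and 0.27 (edgeR, adjusted p = 1 for both). Among membrane regulators Csmd3, a neuronal protein with complement-binding domains, differed by -0.51 over both cohorts (edgeR, adjusted p = 0.489). Masp1, C1s1 and Csmd3 were picked out here after their values were seen.

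The genes outside the 9 most like a member in pattern are given for 7 members, all but C1ra and C5ar1. Likeness was measured by the root mean square difference of centred log2 CPM over all 23 libraries, among the 13705 genes that averaged 1 CPM or more. For C1qa they were Icam1 (0.26), Myo1f (0.287) and Cd14 (0.33), for C1qb Itgb2 (0.215), Cd68 (0.228) and Slc11a1 (0.241) and for C1qc Trem2 (0.233), Myo1f (0.269) and Csf3r (0.286). C1qa and C1qc were closer to each other than to any of these, at 0.213, while C1qa and C1qb were at 0.404. For C4b they were Icam1 (0.519), Mpeg1 (0.542) and St14 (0.547), for C3ar1 Fcgr2b (0.296), Apobec1 (0.322) and AU020206 (0.337) and for Serping1 Anxa2 (0.342), Aebp1 (0.391) and Fbln5 (0.413). Outside the 9, C3 had no gene closer than 0.771, that of Cd22, followed by Lilrb4a (0.819) and A2m (0.827). These distances describe libraries that share depth, tissue and cohort, and they carry no test.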

How the data were processed

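Hippocampal poly(A) RNA of 23 mouse libraries was measured as read counts per gene. Per the submitters' processing notes, the authors' tools were FastQC 0.11.7, Trimmomatic 0.36.5, HISAT2 2.1.0, featureCounts 1.6.0.6 and DESeq2 2.11.40.2 on GRCm38. The deposited files hold whole-number counts for 54232 Ensembl identifiers, not normalized, per the file headers and values. Annotation release, strand setting and the handling of multi-mapping reads were not given in the sources used here. Symbols, positions and exon lengths came from the GRCm38 annotation, which matched 54165 identifiers; the other 67 held 0.0184% of reads.

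CPM were computed with TMM factors, and log2 CPM with a prior count of 2. Comparisons used edgeR 4.0.16 (R 4.3.3), quasi-likelihood test, after filterByExpr (minimum count 10, total 15), with Benjamini-Hochberg adjustment over all genes tested: 20122 at 9 months, 19290 at 11 months and 20931 over both. Each fit held every group of its cohort, or all 23 libraries for the mean tau effect and the cohort difference. Standard errors were derived from the F statistic and intervals are at 95%. DESeq2 1.42.0 served as an alternative beside the block on replicate number, other size factors, no filter, fewer groups, covariates and left-out libraries. The scripts were tested on simulated data. Promoter sequences came from RefSeq (GRCm38.p6), and tables were handled in Python 3.11.15 with pandas 2.3.3 and numpy 2.4.6.

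The members and lists were chosen with earlier results of these data known. The text names all 9 members; of the 55 wider genes, those called by edgeR or DESeq2 and those with no reads, plus 3 said to be picked later; and the 3 most alike genes of a member, predicted genes and pseudogenes left out. A few items that this rule covers are not reported here. Of 11 marker lists, 6 are given in the report. The other 5 lists overlapped between PS19 and WT: neurons (8657 to 10588 CPM in WT, 6658 to 10433 in PS19), endothelium (92.3 to 149, 99.6 to 171), fibroblasts and meninges (62.5 to 76.3, 61.9 to 118), red blood cells (27.6 to 72, 19.7 to 62) and hippocampal neurons (433 to 1033, 341 to 887). Same-numbered libraries deviated together in 5 of the 6 pairs of groups (correlations of 0.11 to 0.82). In PS19_rescue and PS19_HA the correlations ran from 0.074 to 0.24. A library was most like its own number in 4 of 4 cases for PS19 and WT. That held in 2 of 4 for PS19_Lsd1het and WT and 0 of 4 for PS19_Lsd1het and PS19. At 11 months it held in 3 of 3 for PS19_HA and WT_HA, and in 2 of 3 for PS19_rescue with either. Replicate 1 was male in PS19_rescue but female in WT_HA and PS19_HA. The numbers thus do not settle which libraries pair. The block on them covered every group of a cohort and is given as an alternative. What the numbers stand for is not stated in the labels.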

Additional observations from a re-analysis of the deposited data

Results flagged for a closer look

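Within groups of 4 libraries, 3 of the 27 sets of values held a library far from the rest by Dixon's criterion (gap over range above 0.829), which chance meets in about 1 group in 20. C1qa stood at 167 CPM in PS19_Lsd1het replicate 1 (gap over range 0.836), above the other 3 libraries. C1ra stood at 0.775 CPM in PS19_Lsd1het replicate 2 (0.967), below the other 3. Serping1 stood at 1.96 CPM in WT replicate 3 (0.864), the library in which mitochondrial genes took 33.9% of reads, below the other 3.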

How the results depend on the processing

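Counts of members called changed with the tool and with single libraries. Where edgeR called 0 members, DESeq2 called 6 in PS19 against WT, 4 in PS19_Lsd1het against WT, 6 in PS19_HA against WT_HA and 1 in PS19_rescue against WT_HA. With the replicate number as a block, DESeq2 called 7, 7, 4 and 0 of these, edgeR called 0 in all 4, and edgeR again called 6 in the mean tau effect. Leaving out single libraries, edgeR called 0 to 4 in PS19 against WT, 0 to 1 in PS19_HA against WT_HA and 1 to 6 in the mean tau effect, which gave 0 with only the groups compared. Under other scalings, 113 group levels moved by less than 1 SD and 13 by more. C5ar1 (2 to 48 reads) and C1ra (13 to 91 reads) are limited by depth. For the interaction, the fit on only the groups compared equals the one reported and was not run separately. A fit without an Lsd1het library assumes that the lone one varies like the other groups.

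No difference between a tau group and wild type changed sign, except C5ar1 in PS19_HA against WT_HA (C5ar1 -0.54 to 0.24 on leaving out libraries) and C5ar1 and Serping1 in PS19_rescue against WT_HA (C5ar1 -0.39 to 0.43 and Serping1 -0.0080 to 0.70). None of the log2 differences whose sign changes below was called, and the cause was not tested. Some of their ranges on leaving out libraries were wide, such as C3 -1.38 to 0.90 in the cohort difference. The replicate block, which pairs libraries by number, gave with edgeR C1qa 0.048, C1qc 0.15, C3 0.035, C3ar1 0.081 in PS19_Lsd1het against PS19, C1qb -0.087, C1ra 0.0082, C3ar1 0.31, C5ar1 -0.074 in Lsd1het against WT, C1qb 0.051, C1qc 0.12, C4b 0.30 in the interaction and C3 -0.18 in the cohort difference, and with DESeq2 C1qa 0.053, C1qc 0.15, C3ar1 0.080 in PS19_Lsd1het against PS19, C1qb -0.096, C3ar1 0.28, C5ar1 -0.066 in Lsd1het against WT, C1qb 0.057, C1qc 0.13, C4b 0.31 in the interaction and C3 -0.28 in the cohort difference. DESeq2 without the block gave C3ar1 0.012 in the interaction, and edgeR with DESeq2's size factors C3ar1 0.0041 in the interaction. Replicates 1 and 2 alone gave C3 0.0031, C4b -0.28 in PS19_Lsd1het against PS19, and replicates 3 and 4 alone Serping1 -0.019 in PS19_Lsd1het against PS19. With these 2 sets as a covariate the values were C1qb -0.12, C1qc -0.013, C1ra 0.038, C3ar1 0.35, C5ar1 -0.14 in Lsd1het against WT. Without the libraries of high mitochondrial share they were C4b -0.25 in PS19_Lsd1het against PS19 and C1qb -0.17, C1qc -0.060, C4b -0.091, C3ar1 0.24 in Lsd1het against WT. Leaving out each replicate in turn gave ranges of C1qa -0.70 to 0.29, C1qb -0.50 to 0.20, C1qc -0.58 to 0.30, C3 -0.43 to 0.42, C3ar1 -0.44 to 0.35, C4b -0.29 to 0.59 and Serping1 -0.13 to 0.71 in PS19_Lsd1het against PS19. In Lsd1het against WT they were C1qb -0.19 to 0.19, C1qc -0.082 to 0.39, C3ar1 -0.40 to 0.21, C4b -0.24 to 0.54 and C5ar1 -0.35 to 1.03. For the interaction they were C1qb -0.52 to 0.18, C1qc -0.77 to 0.11, C3ar1 -0.34 to 0.42, C4b -0.50 to 0.38 and C5ar1 -0.39 to 1.00. In PS19_rescue against PS19_HA they were C1ra -0.59 to 0.00028, C5ar1 -0.24 to 0.71 and Serping1 -0.56 to 0.17, and in the cohort difference C1qc -0.91 to 0.19 and C3 -1.38 to 0.90.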

Other observations

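The libraries with the least C3 and C4b were replicate 2 among PS19 and replicate 1 among PS19_HA. PS19 replicate 2 had 2.87 CPM of C3 and 74.1 of C4b, and PS19_HA replicate 1 had 6.42 and 114. For C1qa and C1qc, PS19 replicate 3 was lower than PS19 replicate 2. Prnp, the gene whose promoter drives the transgene, stood at 1463, 1782, 1691 and 1645 CPM in PS19 replicates 1 to 4 against 922, 858, 666 and 659 in WT. It stood at 1565, 1610 and 1438 CPM in PS19_HA against 721, 666 and 614 in WT_HA. PS19 replicate 2 and PS19_HA replicate 1 thus had Prnp at the level of the other tau libraries. The summed microglial markers were 332 CPM in PS19 replicate 2 and 307 in PS19_HA replicate 1, and 336 in PS19 replicate 3.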
